A study of Mus musculus with 8 samples.

Results

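Cytochrome P450 genes encode heme-containing monooxygenases that insert oxygen into drugs, fatty acids, sterols, steroids, retinoids and vitamin D. Most sit in the endoplasmic reticulum and take electrons from P450 oxidoreductase and cytochrome b5, and a few sit in mitochondria and use ferredoxin. The liver is the main site of families 1 to 3, which oxidise foreign compounds, and of the enzymes that turn cholesterol into bile acids, and hepatocyte transcription factors and ligand-activated receptors set their levels. The members described here were all genes whose symbol was Cyp followed by a family number, a subfamily letter and a gene number. There were 93 such genes among 54838 genes listed. The rule left out pseudogenes and Cyp51, and it used no measured value.

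The RNA-seq libraries came from 8 cultures of mouse hepatocellular carcinoma cells. The 3H3PM cells carried ectopic MYC, whose species the labels do not give, in 3H3P cells; they were grown as tumours in nude mice, from which subclones were isolated, and 7 of the 9 subclones were analysed here (1, 2, 3, 6, 7, 8 and 9), with 1 library each. The 3H3P cells had lost Trp53 by CRISPR/Cas9 editing and had 1 library, so their own variation was not measured. Every culture descended from 3H3, a liver tumour line with HrasQ61L derived from a C57BL/6 MC4R-KO mouse on a high-fat diet, so all 8 libraries share the Hras allele and the Trp53 edit. Ectopic MYC, passage in mice and the picking of subclones cannot be told apart in this design, and the p-values measure only the spread between the subclones. Cells were in DMEM with 10% FBS.

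Libraries held 12838521 to 17987068 expected counts in the subclones, against 16855985 in the library labelled 3H3P. Trp53 counts, which do not show whether protein is made, came to 53.9 ± 7.45 CPM (counts scaled to a common library total; SD, n = 7) in the subclones, against 212 CPM in the library labelled 3H3P. Mouse Myc was at 6.54 ± 3.58 CPM in the subclones, against 85.2 CPM in the library labelled 3H3P, which goes against the label if the transgene were read as mouse Myc. Some markers of hepatocytes also moved with the groups: 4 of 6 tested were called lower in the subclones, beside 11.8% of all genes tested. The 12 summed to 16.9 to 71.9 CPM there, against 2026 CPM in the library labelled 3H3P. Trf, Ass1 and Apob, at 688, 661 and 586 CPM, made up most of the sum in that library. Alb, at 3.67 CPM in the same library, was not called (edgeR adjusted p = 0.193), and Ttr, Apoa1 and Tat had 3, 0 and 1 counts there. Cps1 and G6pc, also among the 12 hepatocyte markers, were at 0 counts in all 8 libraries. The 10 fibroblast and stellate markers summed to 104 to 502 CPM, against 119 CPM, with Lum and Lrat at 0 throughout. Of 7 tested, 1 was called lower and 1 higher, beside 11.8% lower and 7.33% higher over all genes tested. The gene called lower made up 116 of the 119 CPM and was at 0.00989 ± 0.0262 CPM in the subclones. It passed the filter only through the library labelled 3H3P. These sums thus rest on different genes in each group. The 7 endothelial markers summed to 0.229 to 2.15 CPM, against 1.99 CPM (2 tested, none called, Emcn at 0), the 7 macrophage markers to 10.4 to 31.1 CPM, against 15.4 CPM (3 tested, none called, Clec4f at 0), and the 6 lymphocyte markers to at most 0.0549 CPM, against 0, with 5 at 0 throughout. In bulk RNA, fewer cells of a type and less RNA per cell cannot be told apart, and the part of these markers in the P450 values below was not tested.

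Of the 93 members, 56 (60.2%) had 0 counts in every library, a share close to the 57.4% of all genes listed, and a count of 0 allows up to 3 counts per library. They included Cyp7a1, the rate-limiting enzyme of classical bile acid synthesis, Cyp2e1, which oxidises ethanol, Cyp3a11, a major drug oxidase of mouse liver, Cyp4a10 and Cyp4a14, fatty acid hydroxylases of the liver, and Cyp24a1, which degrades vitamin D. The other 37 had at least 1 count. TPM scales each gene by its length, so that genes can be compared within a library, and 16 members (17.2%) reached TPM 1 in at least 1 library, against 26.9% of all genes. Of these, 8 were at TPM 1 or more in every library, namely Cyp1b1, Cyp2s1, Cyp20a1, Cyp39a1, Cyp4f13, Cyp4f16, Cyp4f17 and Cyp26b1. Cyp3a13, Cyp4b1 and Cyp2c68 reached it in no subclone but in the library labelled 3H3P, whereas Cyp46a1 reached it in 1 subclone and not in the library labelled 3H3P. The members just inside the threshold were Cyp46a1 with at most 1.53 TPM and Cyp2c68 with at most 1.83 TPM, and those just outside were Cyp7b1 with at most 0.79 TPM and Cyp2d22 with at most 0.69 TPM.

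**Figure D1:**
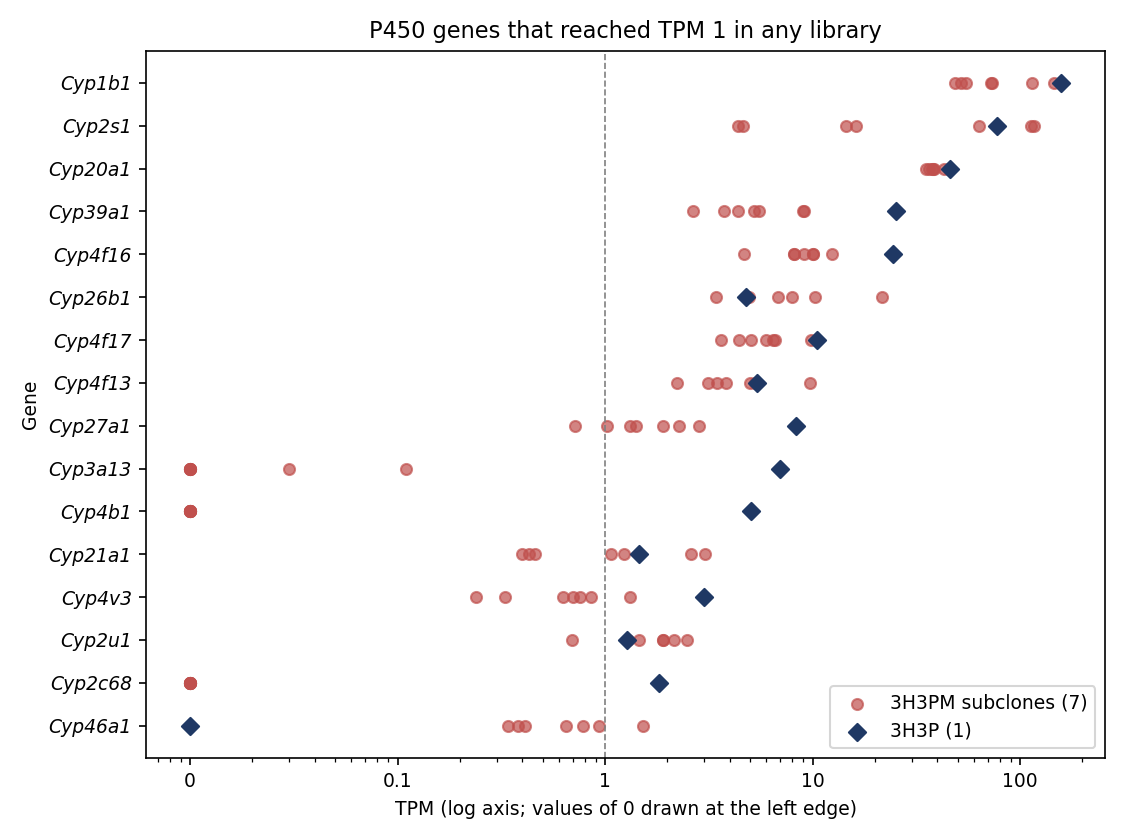
TPM (log axis, values of 0 drawn at the left edge) of the 16 P450 genes that reached TPM 1 in any library, with 1 red point for each of the 7 3H3PM subclones and a blue diamond for the 1 3H3P library. The diamond lies right of every subclone for Cyp1b1, Cyp20a1, Cyp39a1, Cyp4f16, Cyp4f17, Cyp27a1, Cyp4v3, Cyp3a13, Cyp4b1 and Cyp2c68, by a small margin for Cyp1b1, Cyp20a1 and Cyp4f17, and at 0 for Cyp46a1.

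Expressed members were unevenly spread over the families. Family 2, the largest group with 48 genes, had 36 members at 0 throughout and 3 at TPM 1; 1 of the 36, Cyp2r1, is described below with the enzymes of vitamin D metabolism. Family 4, fatty acid hydroxylases for the most part, had 5 of 17 at TPM 1, and family 3 had 1 of 7. Of the 6 genes of sterol and bile acid metabolism 3 reached TPM 1, of the 6 of steroid hormone synthesis 1, of the 3 that degrade retinoic acid 1, and of the 3 of vitamin D metabolism none. By position, chromosome 17 held 6 of the 16 (Cyp1b1, Cyp21a1, Cyp39a1, Cyp4f13, Cyp4f16 and Cyp4f17) among its 11 members. Chromosome 19, with 18 members that are mostly of subfamily Cyp2c, held 1, and chromosome 15, with 10 members, held none.

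The sum over all 93 members was lower in the 3H3PM subclones. It came to 260, 265, 201, 151, 224, 155 and 198 TPM in subclones 1, 2, 3, 6, 7, 8 and 9, against 382 TPM in the library labelled 3H3P. All 7 subclones lay below that library, and their mean of 208 ± 45.5 TPM (SD, n = 7) was 0.544 times its value. No test was made, since an exact permutation test of 7 libraries against 1 cannot give a p below 1 in 8. The genes behind the sum differed between subclones. Cyp2s1 led in subclones 1, 2 and 3 with 44.8%, 42.7% and 31.6% of the sum, and Cyp1b1 led in subclones 6, 7, 8 and 9 with 36.2%, 65.2%, 47.4% and 58.0%. In the library labelled 3H3P, Cyp1b1 also led with 41.4%, ahead of Cyp2s1 with 20.3%. Cyp1b1, Cyp2s1 and Cyp20a1 together made up 70.9% to 86.2% of the sum in the subclones, against 73.7% in the library labelled 3H3P.

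**Figure D2:**
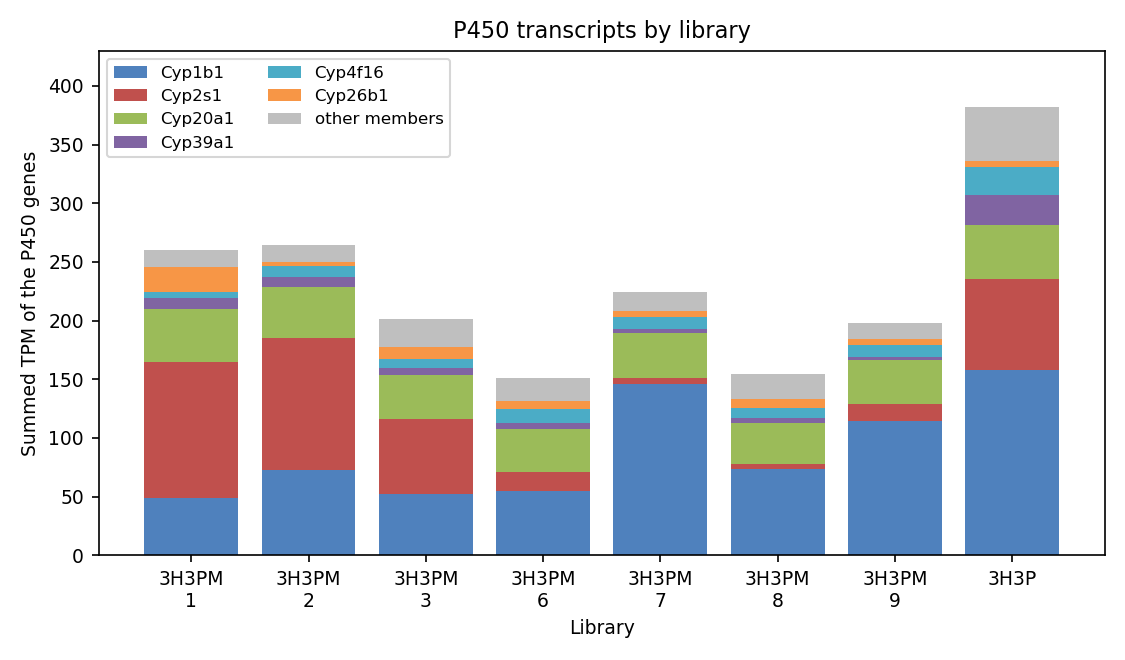
Summed TPM of the 93 P450 genes in each library, stacked by gene, with the 7 3H3PM subclones on the left and the 3H3P library on the right. The subclones reach 151 to 265 TPM and the 3H3P library 382 TPM, and the red block (Cyp2s1) is tall in subclones 1 to 3 and short in subclones 6 to 9.

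Whether single members differed was tested with edgeR's quasi-likelihood test on rounded expected counts, with Benjamini-Hochberg adjustment over the 14634 genes that passed a filter on low counts, and a gene was called at an adjusted p under 0.05. Of all genes tested, 19.1% were called, 11.8% lower and 7.33% higher in the subclones. The filter kept 17 members, the 16 at TPM 1 and Cyp7b1. Of these, 9 were called: Cyp3a13, Cyp39a1, Cyp4b1, Cyp27a1, Cyp2c68, Cyp4f16, Cyp4v3 and Cyp7b1 were lower, and Cyp46a1 was higher. Cyp3a13, Cyp4b1, Cyp2c68 and Cyp7b1 passed the filter only through the library labelled 3H3P, and Cyp46a1 only through the subclones, so those 5 had to differ, and their number supports nothing. In CPM, of the 12 members over the filter in both groups, 8 were below the library labelled 3H3P in all 7 subclones. None was above it in all 7. Over all genes tested, 30.4% were below it in all 7 subclones and 27.1% above it. Those shares include genes that passed the filter through 1 group only, so the sets are unlike. Of these 12, 4 were called lower. The 20 members with counts that were not tested had at most 19 counts over all 8 libraries and at most 0.69 TPM.

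**Figure D3:**
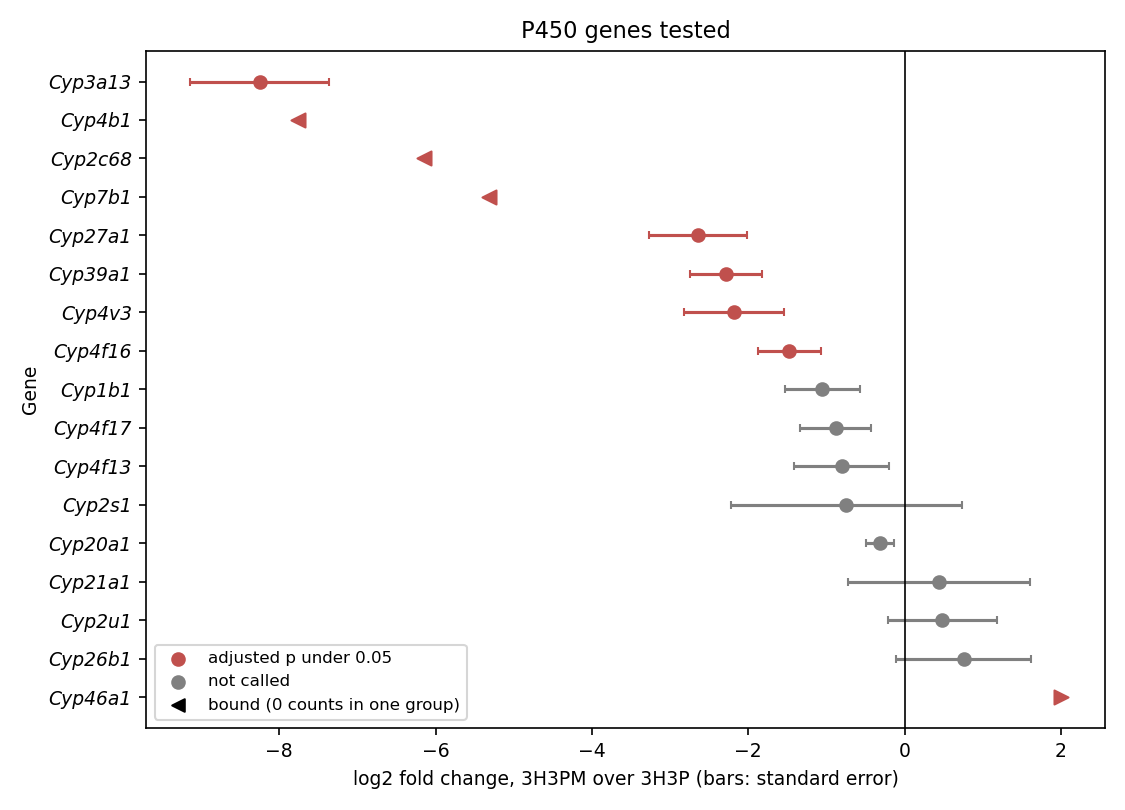
Log2 fold change (3H3PM over 3H3P) of the 17 P450 genes tested, with bars of 1 standard error, red where the adjusted p was under 0.05, and triangles for genes with 0 counts in a group, drawn at the bound that 3 counts allow. The called genes run from Cyp3a13 at -8.25 to Cyp46a1, the single red point right of 0.

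Short stretches before the transcription start are shown for Cyp4f16, Cyp27a1 and Cyp3a13, the called members of highest TPM with an entry in the promoter table, and for Cyp1b1 and Cyp2s1, which were picked after their values were seen because they led the sum. Each is the 250 bases before the RefSeq start (GRCm38.p6), written 5′ to 3′ on the gene's strand. Capitals mark any match, on either strand, to GCGTG (core of the aryl hydrocarbon receptor element), AGGTCA (nuclear receptor element), CCAAT (the box bound by NF-Y), GGGCGG (the box bound by Sp1) or TATAAA (the TATA box). None of these motifs contains another.
Cyp4f16: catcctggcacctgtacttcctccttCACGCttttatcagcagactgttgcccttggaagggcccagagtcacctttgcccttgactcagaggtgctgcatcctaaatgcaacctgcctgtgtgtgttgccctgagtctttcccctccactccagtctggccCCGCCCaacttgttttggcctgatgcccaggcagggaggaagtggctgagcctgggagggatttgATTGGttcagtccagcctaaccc
Cyp27a1: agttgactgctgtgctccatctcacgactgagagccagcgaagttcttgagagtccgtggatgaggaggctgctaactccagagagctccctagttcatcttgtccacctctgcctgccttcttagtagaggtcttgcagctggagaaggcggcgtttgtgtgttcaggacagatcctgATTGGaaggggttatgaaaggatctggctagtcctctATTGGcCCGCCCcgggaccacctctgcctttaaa
Cyp3a13: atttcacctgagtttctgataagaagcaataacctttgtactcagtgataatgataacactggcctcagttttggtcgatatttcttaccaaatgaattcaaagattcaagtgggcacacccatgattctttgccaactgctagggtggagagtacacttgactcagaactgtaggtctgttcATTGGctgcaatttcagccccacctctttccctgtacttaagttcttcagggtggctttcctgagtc
Cyp1b1: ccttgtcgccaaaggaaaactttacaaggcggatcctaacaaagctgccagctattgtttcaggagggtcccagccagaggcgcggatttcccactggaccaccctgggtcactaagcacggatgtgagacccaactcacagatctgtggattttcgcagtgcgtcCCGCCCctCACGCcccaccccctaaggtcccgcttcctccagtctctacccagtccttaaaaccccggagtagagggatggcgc
Cyp2s1: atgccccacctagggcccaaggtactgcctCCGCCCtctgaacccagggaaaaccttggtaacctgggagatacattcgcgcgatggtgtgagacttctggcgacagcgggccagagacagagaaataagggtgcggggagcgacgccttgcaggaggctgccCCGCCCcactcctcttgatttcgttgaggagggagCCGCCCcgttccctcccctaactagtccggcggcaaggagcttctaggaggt
The windows are chr17:32536307-32536556 on the plus strand for Cyp4f16, chr1:74713285-74713534 on the plus strand for Cyp27a1, chr5:137921620-137921869 on the minus strand for Cyp3a13, chr17:79715062-79715311 on the minus strand for Cyp1b1 and chr7:25816526-25816775 on the minus strand for Cyp2s1. The Cyp2s1 window lies inside the gene as GENCODE vM21 draws it. Cyp4f16 and Cyp1b1 each have 1 GCGTG, Cyp2s1 has 3 GGGCGG and no GCGTG, and Cyp27a1 has 2 CCAAT. The table held 72 of the 93 members and 12 of the 16 that reached TPM 1, with no entry for Cyp39a1. Among those 12, GCGTG was in 6 of 12, against 28.2% of all 32851 promoters of the same length, and GGGCGG in 9 of 12, against 32.7%. CCAAT was in 6 of 12, against 33.8%, TATAAA in 1, in Cyp26b1, against 12.4%, and AGGTCA in none, against 14.0%. A match is a description of letters and not a bound site.

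Of the enzymes that oxidise foreign compounds, Cyp3a13 and Cyp2c68 were nearly or wholly without reads in the subclones. Both passed the filter only through the library labelled 3H3P, so their direction was fixed. Cyp3a13 (chromosome 5, 137892932 to 137921619), a family 3 enzyme of mouse liver and intestine, had 0, 1, 0, 0, 0, 0 and 3 counts in subclones 1, 2, 3, 6, 7, 8 and 9, against 224 counts in the library labelled 3H3P. No subclone came close to that library. The counts gave a ratio of 372 in favour of the library labelled 3H3P (95% exact interval 143 to 1379, counting error only), with a log2 fold change of -8.25 ± 0.89 (SE) and an adjusted p of 0.000598. Cyp2c68 (chromosome 19, 39688834 to 39741054), a gene of the Cyp2c cluster, had 0 counts in all 7 subclones, against 32 counts in the library labelled 3H3P. Set against 3 counts over the whole group, that put the subclones at least 70.9-fold lower. The edgeR test called Cyp2c68 (adjusted p = 0.0319), but DESeq2 did not call it (adjusted p = 0.187). Members of the Cyp2c cluster are close copies, so how the counting shared reads among them bears on this value, although its counts were whole numbers.

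Cyp1b1 and Cyp2s1, which also act on foreign compounds and can be induced through the aryl hydrocarbon receptor, led the sum in subclones 1 to 3 and in the library labelled 3H3P, while Cyp20a1 was second to Cyp1b1 in subclones 6 to 9. Neither Cyp1b1 nor Cyp2s1 was called. Cyp1b1 (chromosome 17, 79701537 to 79715061), an oxidase of estrogens and polycyclic hydrocarbons, ran from 48.5 to 146 TPM with a median of 72.4 TPM in the subclones, against 158 TPM in the library labelled 3H3P. All 7 subclones lay below that library, subclones 7 and 9 closest to it with 146 and 115 TPM. The log2 fold change was -1.05 ± 0.48 (SE) with an adjusted p of 0.155, and it became 0.0496 when subclone 7 was left out. Its family members Cyp1a1 and Cyp1a2, the classical liver targets of the same receptor, had 4 counts and 1 count over all libraries.

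Cyp2s1 (chromosome 7, 25802475 to 25816913), a family 2 enzyme known from epithelia outside the liver, split the subclones. It stood at 116, 113, 63.6, 16.3, 4.60, 4.39 and 14.4 TPM in subclones 1, 2, 3, 6, 7, 8 and 9, against 77.4 TPM in the library labelled 3H3P. Subclones 1 and 2 were above that library and the other 5 below it, so the groups overlapped. Its log2 fold change of -0.75 ± 1.48 (SE; adjusted p = 0.757) was smaller than its standard error. The SD of log2 CPM over the subclones was 2.02, higher than for 99.3% of all genes tested. Axl, a nearby tested gene, encodes a receptor tyrosine kinase, starts 13.8 kb away and had a far smaller spread. It ranged from 258 to 462 CPM in the subclones, against 1079 CPM in the library labelled 3H3P, with an SD of 0.28.

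Cyp2u1, a fatty acid hydroxylase of family 2, was at 0.69 to 2.48 TPM with a median of 1.90 TPM in the subclones, against 1.28 TPM in the library labelled 3H3P, with no call (adjusted p = 0.660). It was the sole member with fractional counts, and 585 bases of it overlap the antisense gene 4930534D22Rik, so its low values are uncertain.

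Of the 5 family 4 members tested, Cyp4v3 and Cyp4f16 were over the filter in both groups and called lower, Cyp4b1 passed it only through the library labelled 3H3P, and Cyp4f13 and Cyp4f17 were not called. Cyp4b1 (chromosome 4, 115624725 to 115647723), a fatty acid hydroxylase that also activates lung toxins, had 0 counts in every subclone, against 98 counts and 5.03 TPM in the library labelled 3H3P. Set against 3 counts over the group, the subclones were at least 217-fold lower (adjusted p = 0.0138). Cyp4v3 (chromosome 8, 45304944 to 45333216), whose human counterpart CYP4V2 hydroxylates fatty acids in the eye, was at 0.24 to 1.32 TPM with a median of 0.70 TPM in the subclones, against 3.00 TPM in the library labelled 3H3P. The groups did not overlap, a property that 57.4% of all genes tested shared, and the log2 fold change was -2.18 ± 0.64 (SE; adjusted p = 0.0435). That call is fragile: the adjusted p was 0.0764 on log2(TPM + 0.1), 0.0599 with no filter, and 0.0550 to 0.0694 when subclone 2, 3, 6, 7 or 9 was left out. Its span overlaps that of Gm45753, which was at 0 counts.

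The 3 expressed members of subfamily Cyp4f, which hydroxylate leukotrienes and long fatty acids, had lower means in the subclones, and 1 was called. Cyp4f16 (chromosome 17, 32536558 to 32551798) was at 4.68, 9.08, 8.11, 12.4, 10.1, 8.11 and 10.1 TPM in subclones 1, 2, 3, 6, 7, 8 and 9, against 24.5 TPM in the library labelled 3H3P. The groups did not overlap, and subclone 1 was lowest. The log2 fold change was -1.48 ± 0.40 (SE; adjusted p = 0.0326), with an adjusted p of 0.0530 on log2(TPM + 0.1), 0.0505 without subclone 2 and 0.0582 without subclone 3. Cyp4f17 ran from 3.63 to 9.84 TPM with a median of 5.99 TPM in the subclones, against 10.5 TPM in the library labelled 3H3P, and Cyp4f13 from 2.22 to 9.69 TPM with a median of 3.84 TPM, against 5.38 TPM. Neither was called (adjusted p = 0.208 for Cyp4f17 and 0.384 for Cyp4f13), and in TPM subclone 3 was above the library labelled 3H3P for Cyp4f13. These genes are close copies of each other, and reads shared between them could move their values, although their counts were whole numbers.

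Of the 6 enzymes of sterol and bile acid metabolism 4 were tested. Cyp39a1 and Cyp27a1 were over the filter in both groups and called lower in the subclones, whereas the direction of Cyp7b1 and Cyp46a1 was fixed by the filter. Cyp39a1 (chromosome 17, 43667425 to 43751431), an oxysterol hydroxylase of bile acid synthesis, was at 9.06, 8.97, 5.51, 5.24, 3.76, 4.38 and 2.64 TPM in subclones 1, 2, 3, 6, 7, 8 and 9, against 25.2 TPM in the library labelled 3H3P. Every subclone was far below that library. The log2 fold change was -2.28 ± 0.46 (SE; adjusted p = 0.010), and it was called under all 15 alternative settings. Slc25a27, which starts 0.2 kb away, was not called (log2 fold change 0.52, adjusted p = 0.649), and Rcan2, on the other side at 49.9 kb, was lower (log2 fold change -6.10, adjusted p = 0.00452). Cyp27a1 (chromosome 1, 74713574 to 74737892), the mitochondrial sterol side-chain hydroxylase that opens the alternative bile acid pathway, was at 0.72 to 2.85 TPM with a median of 1.41 TPM in the subclones, against 8.30 TPM in the library labelled 3H3P. The groups did not overlap, and the log2 fold change of -2.64 ± 0.63 (SE; adjusted p = 0.0197) was also called under all 15.

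Cyp7b1 and Cyp46a1 were near the limit of detection and moved in opposite directions. Cyp7b1 (chromosome 3, 18071950 to 18243338), the oxysterol hydroxylase of the same alternative pathway, had 0 counts in every subclone, against 18 counts in the library labelled 3H3P. Against 3 counts over the group, the subclones were at least 39.9-fold lower (adjusted p = 0.0496), and leaving out subclone 1, 2, 3, 6, 7 or 9 gave an adjusted p of 0.0557 to 0.0683. Cyp46a1 (chromosome 12, 108334381 to 108362234), the cholesterol hydroxylase of neurons, had 10, 7, 14, 22, 6, 14 and 7 counts in subclones 1, 2, 3, 6, 7, 8 and 9, against 0 counts in the library labelled 3H3P. All 7 subclones had reads, which made it at least 4.01-fold higher in the subclones against 3 counts in that library (adjusted p = 0.0265), but it was not called on log2(TPM + 1) (adjusted p = 0.143). Cyp8b1, which sets the cholic acid share of bile acids, had 3 counts in all, in 1 library, and Cyp7a1 had 0.

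Of the steroid, retinoid and vitamin D enzymes, Cyp26b1 and Cyp21a1 were tested and neither was called, and the others had too few counts to be tested. Cyp26b1 (chromosome 6, 84571414 to 84593908), which degrades retinoic acid, was at 21.5, 3.43, 10.2, 6.85, 4.85, 7.95 and 4.96 TPM in subclones 1, 2, 3, 6, 7, 8 and 9, against 4.78 TPM in the library labelled 3H3P. Subclone 1 was highest and subclone 2 lowest, on either side of that library (log2 fold change 0.76 ± 0.86 SE, adjusted p = 0.570). Its family members Cyp26a1 and Cyp26c1 had 4 counts and 1 count over all libraries. Cyp21a1, the steroid hydroxylase of the adrenal cortex, was at 0.40 to 3.02 TPM with a median of 1.07 TPM in the subclones, against 1.46 TPM in the library labelled 3H3P, so the groups overlapped. A near-identical pseudogene copy lies close to it, so its counts are uncertain, although they were whole numbers. Its fold change had no stable sign: 0.44 ± 1.17 (SE; adjusted p = 0.824) on log2 counts, but -0.50 on log2(TPM + 0.1) and -0.21 on log2(TPM + 1). Of the vitamin D enzymes, Cyp27b1, which makes the active hormone, had 13 counts over the 7 subclones, against 1 count in the library labelled 3H3P, and Cyp24a1 had 0. Cyp2r1, a gene usually expressed at a low level in many tissues, was also listed at 0 in all 8 libraries, and whether its reads were counted was not tested.

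Cyp20a1 (chromosome 1, 60343323 to 60388060), an orphan P450 without a settled substrate, was one of the steadiest members. It was at 45.3, 42.9, 38.3, 36.2, 38.5, 35.4 and 37.5 TPM in subclones 1, 2, 3, 6, 7, 8 and 9, against 46.2 TPM in the library labelled 3H3P. All subclones were below that library by a small margin, and the log2 fold change of -0.31 ± 0.18 (SE) was not called (adjusted p = 0.254). Its SD of log2 CPM over the subclones, 0.13, was higher than for 8.32% of all genes tested. Over the 17 members tested the median of this SD was 0.58, against 0.32 over all genes tested. Cyp4b1, Cyp2c68 and Cyp7b1 entered that median at 0 because they had 0 counts in every subclone, and the genes were not matched by level. Cyp2s1 and Cyp21a1 (1.11) were the 2 members above 1, a level that 9.53% of all genes tested passed.

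The redox partners that feed electrons to these enzymes formed a list of 9 genes, each tested singly. Of these, 3 were lower and 0 higher, with a median log2 fold change of -0.46, against 0.03 over all genes tested. No test was made of this or the other lists as a whole. Of all genes tested, 11.8% were lower and 7.33% higher. Por, the oxidoreductase that all microsomal P450 enzymes need, was at 87.3 ± 24.2 CPM (SD, n = 7) in the subclones, against 129 CPM in the library labelled 3H3P, a difference edgeR did not call (log2 fold change -0.56, adjusted p = 0.299). Cyb5a, cytochrome b5, was at 24.5 ± 5.96 CPM in the subclones, against 128 CPM in the library labelled 3H3P (log2 fold change -2.38 ± 0.27 SE, adjusted p = 0.00069). Pgrmc1, a heme-binding P450 partner, and Cyb5r3, the cytochrome b5 reductase, were also lower (log2 fold changes -1.24 and -1.16, adjusted p = 0.00486 and 0.0258).

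Heme supply, which every P450 enzyme depends on, gave 3 lower and 0 higher among 13 genes tested, with a median of -0.08, a share near the 19.1% called among all genes tested. Alas1, the rate-limiting enzyme of heme synthesis outside red cells, was at 23.2 ± 2.33 CPM in the subclones, against 49.8 CPM in the library labelled 3H3P (log2 fold change -1.10, adjusted p = 0.00497). Fech and Cpox, later enzymes of the same route, had log2 fold changes of -0.76 and -1.16 (adjusted p = 0.0391 and 0.0427), and each was called under only 6 of 15 alternative settings, so that Alas1 was the 1 call left in several of them, with an adjusted p of up to 0.0706 for Fech and 0.0869 for Cpox.

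Receptors and liver factors that drive P450 transcription gave 5 lower and 2 higher among 16 tested, with a median of -0.84. The shares over all genes tested were 11.8% lower and 7.33% higher. Hnf4a, the central hepatocyte factor, was at 0.787 ± 1.23 CPM in the subclones, against 54.2 CPM in the library labelled 3H3P (log2 fold change -6.09, adjusted p = 0.00462). Subclone 9, at 3.53 CPM, carried most of that mean; the other 6 lay at 0.0741 to 0.703 CPM, and the log2 fold change without subclone 9 was -7.29. Foxa2, a liver factor that acts beside it, fell by 6.83 on the log2 scale (adjusted p = 0.000817), and Nr1h3, the oxysterol receptor LXR alpha, fell by 1.45 (adjusted p = 0.00922). Hlf, a clock-linked activator of detoxification genes, and Rxrb, a partner receptor, were the 2 that were higher. Hlf was at 2.36 to 6.96 TPM in the subclones, against 0.07 TPM and 3 counts in the library labelled 3H3P, and the counts gave a ratio of 54.6 in favour of the subclones (95% exact interval 18.6 to 265, counting error only; adjusted p = 0.00289). Hlf passed the filter only through the subclones and Onecut1, 1 of the 5 lower, only through the library labelled 3H3P, so their directions were fixed. Nr1i2, the pregnane X receptor that induces Cyp3a genes, had 1 count over all libraries, and Nr1i3, the constitutive androstane receptor, was at 0.476 ± 0.382 CPM in the subclones, against 0.311 CPM in the library labelled 3H3P (adjusted p = 0.768).

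In the aryl hydrocarbon receptor pathway, which controls family 1, 1 of 7 genes tested was lower and 0 higher, with a median of -0.97. Over all genes tested, 11.8% were lower and 7.33% higher. DESeq2 called 4: Aldh3a1 and Ugt1a6a were lower, and Nqo1 and Tiparp were higher in the subclones. DESeq2 also called more genes in all, 3428 of the 14634 tested, with 1739 lower and 1689 higher. The log2 fold changes by edgeR were 3.87 for Nqo1 and 1.49 for Tiparp (adjusted p = 0.115 and 0.112, not called). Both were above the library labelled 3H3P in all 7 subclones, but Nqo1 passed the filter only through the subclones. Ahr itself was at 55.0 ± 20.7 CPM in the subclones, against 108 CPM in the library labelled 3H3P (adjusted p = 0.205), and its partner Arnt at 96.2 ± 10.2 CPM, against 73.3 CPM (adjusted p = 0.182), and neither was called. Aldh3a1, an aldehyde dehydrogenase induced by the receptor, was at 10.2 ± 6.63 CPM in the subclones, against 252 CPM in the library labelled 3H3P, and fell by 4.63 on the log2 scale (adjusted p = 0.00103).

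The pathways that supply or use P450 substrates were counted in the same way, beside 11.8% lower and 7.33% higher over all genes tested. Of 11 retinoic acid genes tested, 3 were lower and 0 higher (median -0.26): Aldh1a1 and Rdh10, which make retinoic acid from retinol, fell by 9.80 and 3.52 on the log2 scale (adjusted p = 0.000123 and 0.00108), Aldh1a1 having passed the filter only through the library labelled 3H3P, and Dhrs3, which reduces retinal, fell by 3.54 (adjusted p = 0.0461, up to 0.0938 under the alternatives). Of 5 vitamin D genes (median 0.32), Vdr, the receptor, was the 1 called, as higher: it was at 29.1 ± 11.0 CPM in the subclones, against 0.933 CPM in the library labelled 3H3P (log2 fold change 4.95, adjusted p = 0.0127, but 0.166 by limma-voom). Of 9 partners in sterol and bile acid metabolism, 3 were lower and 0 higher (median -0.02): Ch25h, an oxysterol synthase, Amacr, a racemase of bile acid side chains, and Hsd3b7, the sterol dehydrogenase of bile acid synthesis, had log2 fold changes of -7.41, -2.84 and -2.21 (adjusted p = 0.00069, 0.0106 and 0.0116), and Ch25h passed the filter only through the library labelled 3H3P. Of 6 eicosanoid genes, 2 were lower and 0 higher (median -1.71): Pla2g4a, which releases arachidonic acid, fell by 2.64 (adjusted p = 0.00224) and Ephx1, the microsomal epoxide hydrolase, by 2.80 (adjusted p = 0.0460, called under 6 of 15 alternatives).

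**Figure D4:**
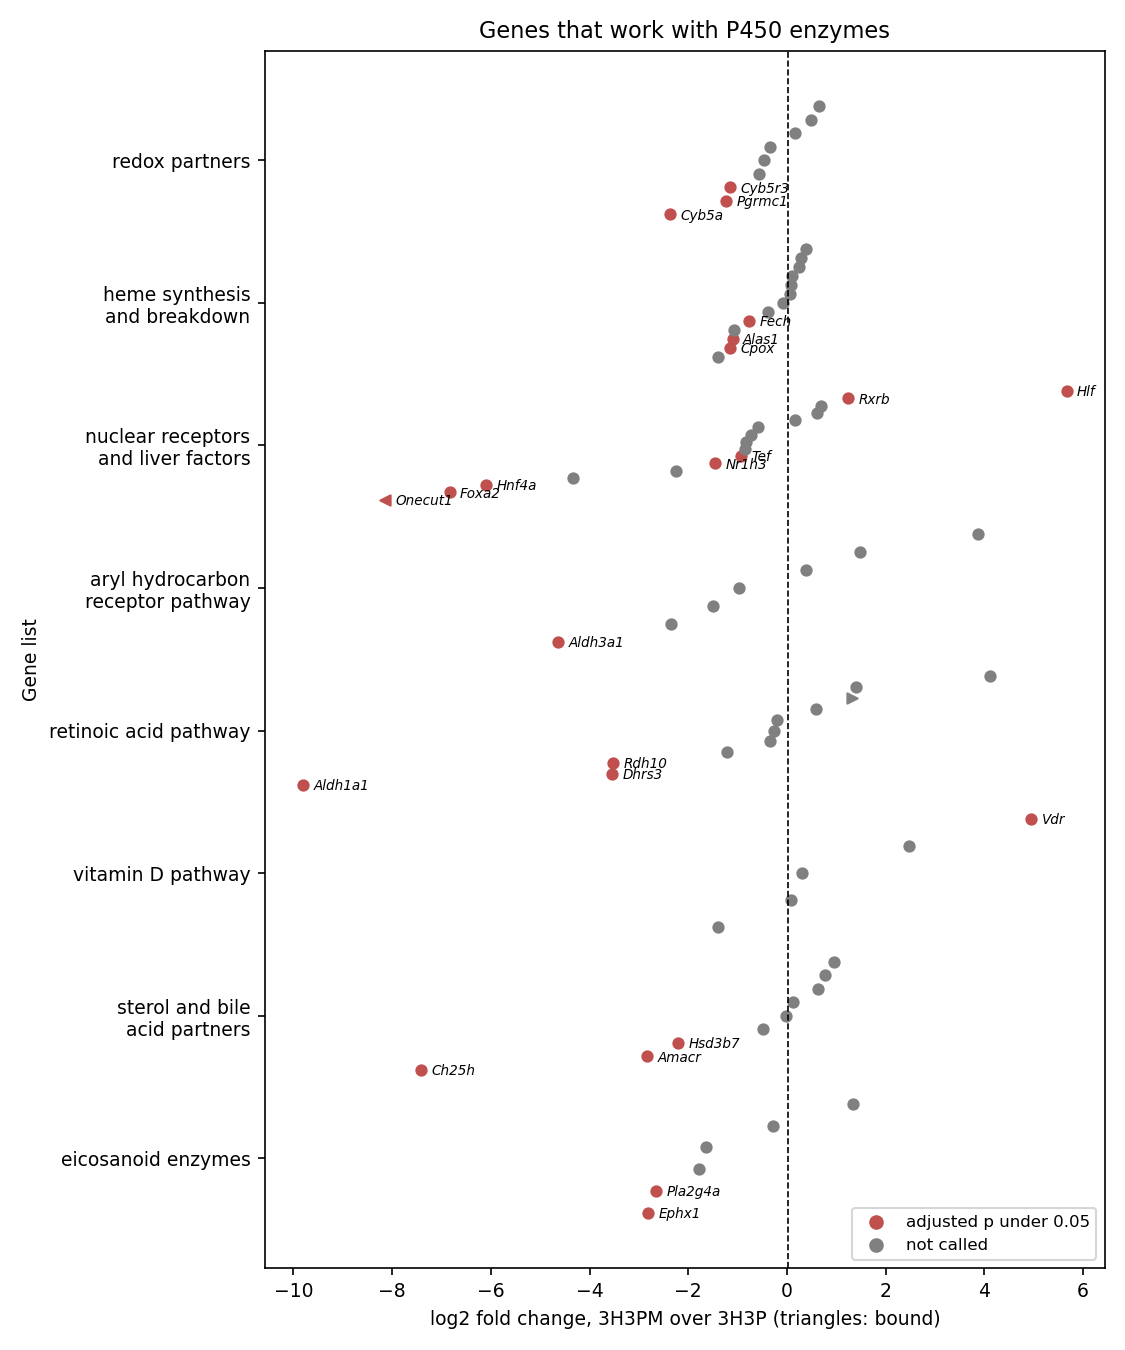
Log2 fold change (3H3PM over 3H3P) of the tested genes that work with P450 enzymes, by list, with 1 point per gene, red and named where the adjusted p was under 0.05, and triangles at the bound for genes with 0 counts in a group. Redox partners, heme genes, retinoic acid, sterol and eicosanoid lists have named genes left of 0 alone, whereas Hlf, Rxrb and Vdr lie right of 0.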

How the data were processed

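RNA was extracted with TRIzol and libraries were made with a strand-specific kit, per the labels' protocols. FastQC, STAR, RSEM and DESeq2 are named in the submitters' processing notes with GRCm38/mm10. Not given in the sources used here: tool versions, and whether counting used strand. Per library, the authors deposited RSEM expected counts, which are estimates and need not be whole, and TPM, which scales by gene length and keeps no depth. Expected counts were rounded and tested with edgeR 4.0.16 in R 4.3.3 (glmQLFit and glmQLFTest, TMM, filterByExpr by group, Benjamini-Hochberg over 14634 genes); CPM were computed from them. A bound sets 0 counts to 3, per library or over the group. Alternatives used DESeq2 1.42.0, limma-voom (limma 3.58.1), other scalings and filters, log2(TPM + 0.1), log2(TPM + 1), and each subclone left out.

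Named were all members at TPM 1 or called, up to 4 called genes per list with the smallest p, and Por, Cyb5a, Alas1, Ahr, Arnt, Nr1i2, Nr1i3, Hnf4a, Cyp51, Tbxas1 and Ptgis. Also named were some markers, some neighbours of members, and the aryl hydrocarbon receptor genes that DESeq2 called. The members and lists were chosen with earlier results of these data known, and 2 genes of the lists are not reported here. Subclones are separate isolates. Positions are from GENCODE vM21 (GRCm38), and promoters are from RefSeq (GRCm38.p6).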

Additional observations from a re-analysis of the deposited data

Results flagged for a closer look

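Single subclones stood apart for 2 members, by a test of the gap between the end sample and its neighbour over the whole range of the 7 subclones, against the 95% critical value of Dixon for 7 samples, which chance passes in about 1 of 20 groups. For Cyp4f16, subclone 1 lay below the other subclones with a gap of 0.6604 of the range. For Cyp3a13, subclone 9 lay above the others with a gap of 0.5813 of the range, which rests on 3 counts.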

How the results depend on the processing

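No paired analysis was possible because 3H3P has 1 library and shares fewer than 2 replicate numbers with the subclones. Over the values for single members under the alternatives, 227 kept their direction and their side of the threshold, 18 lost the call, 1 gained it and 2 changed sign, both for Cyp21a1 (-0.50 on log2(TPM + 0.1) and -0.21 on log2(TPM + 1)). Over the partner and marker genes named, 407 kept both and 35 lost the call. DESeq2 called 1689 genes higher in the subclones, against 1072 by edgeR. Requiring 10 counts in 7 libraries left 4 members called, all 4 lower, since members near 0 in the subclones were then not tested. Leaving out 1 subclone at a time gave 1991 to 2985 genes called (669 to 1185 higher, 1322 to 1800 lower), 6 to 9 members called (5 to 8 lower), 18 to 27 partner genes called, a median SD of 0.498 to 0.632 over the subclones, and a log2 ratio of summed TPM of -0.95 to -0.81. The lowest count of genes called higher, 669, came without subclone 3, and 5 members were called lower without subclone 2 or 3; the cause was not tested. Depth limits the 20 members with counts that were not tested, and with 1 library for 3H3P no value shows how far its own cultures vary.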

Other observations

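Cyp51, a sterol demethylase of cholesterol synthesis whose symbol falls outside the naming rule, was at 153 ± 57.7 CPM (SD, n = 7) in the subclones, against 78.8 CPM in the library labelled 3H3P, a difference edgeR did not call (log2 fold change 0.96, adjusted p = 0.234). Tbxas1, the thromboxane synthase, had at most 3 counts and Ptgis, the prostacyclin synthase, at most 5 counts in any library. The nearest tested protein-coding gene on each side of each tested member was taken. Genes whose annotation version differed from GENCODE vM21 were not considered, so this set is partial. Of these neighbours, 16 lay within 25 kb, and 5 of the 16 were called (31.2%), against 19.1% of all genes tested. They were Pilrb2, next to Cyp3a13 (log2 fold change -7.64, adjusted p = 0.000781), which had at most 0.148 CPM in a subclone and passed the filter only through the library labelled 3H3P, Rmdn2, next to Cyp1b1 (-2.69, adjusted p = 0.00351), Axl, next to Cyp2s1 (-1.64, adjusted p = 0.00209), Exoc6b, next to Cyp26b1, and Ttll4, next to Cyp27a1, which was the 1 that was higher. Cyp1b1, Cyp2s1 and Cyp26b1 were not called themselves.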
